A study of Mus musculus with 8 samples.

Results

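Serpins were examined as a gene family in a mouse fibroblastic reticular cell (FRC) line, FRCs being the fibroblasts that build the scaffold of the lymph node. Members were the rows of the count table whose symbol is Serpin followed by a clade letter from a to i and a number. Of 55367 genes, 63 that met this rule are described. Of these, 12 had at least 10 counts in at least 3 of the 8 libraries and were tested, and 51 were low. The line came from lymph nodes of C57BL/6 mice carrying p53 ER/ER alleles, so all 4 conditions share that genotype and a single line. Cells were kept for 4 days in RPMI with water (vehicle), in RPMI with 15 mmol/L lactic acid (LA), in medium that FRCs had conditioned (CCM) or in medium from B16.F10 melanoma cultures (TCM), all with 2% FBS. TCM was set against CCM and LA against vehicle, with 2 libraries per condition.

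Serpins are protease inhibitors that act once. The target protease cuts an exposed reactive loop, the serpin springs into a new fold, and the protease is dragged along and locked in a covalent complex. Some members no longer inhibit proteases and serve as chaperones or secreted factors. Clade B members lack a classical signal peptide and mostly act inside cells, where they are known to protect against granule and lysosomal proteases, while clades A, C, D and G are best known from plasma and are made largely by the liver.

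Tested members came from clades A (1 of 25 members), B (7 of 28), E (1 of 2), F (1 of 2), H (1 of 1) and I (1 of 2). The single members of clades C, D and G were low. On GRCm38 (GENCODE M21 positions), 6 of the 7 tested clade B members lie in a cluster of 15 clade B members on chromosome 13 from 32842092 to 34002794. The cluster holds copies that arose from one another, so reads can be shared between them. To show how alike the copies are, the longest identical stretch of coding sequence of 4 pairs is given here 5′ to 3′, the first being 62 bases and crossing an exon junction.
Serpinb9 with Serpinb9b: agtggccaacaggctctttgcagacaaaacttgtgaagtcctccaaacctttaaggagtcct
Serpinb6a with Serpinb6b: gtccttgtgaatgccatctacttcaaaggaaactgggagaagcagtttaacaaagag
Serpinb1a with Serpinb1b: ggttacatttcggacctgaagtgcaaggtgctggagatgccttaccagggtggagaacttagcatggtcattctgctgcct
Serpinb6b with Serpinb6c: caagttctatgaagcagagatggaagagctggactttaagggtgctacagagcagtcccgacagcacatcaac
These stretches run over 62, 57, 81 and 73 bases. Over whole annotated transcripts the shared part was small for most members. Of all 50-base windows, 0.378% of those of Serpinb9 and 0.478% of those of Serpinb9b occurred in another gene. Genes whose position overlaps that of the member were left out of these percentages. The value was 2.81% for Serpinb1a, 2.92% for Serpinb6b, 3.09% for Serpinb1b and 0.751% for Serpinb6a. It was 15.5% for Serpina3g, of which 8.89% was shared with the pseudogene Serpina3h. No window of Serpinf1 or Serpinh1 was shared (0 for each). Whether reads were counted by strand is not given in the sources used here, so reads of Serpinb6a, which overlaps Nqo2, Ripk1 and 1110046J04Rik on the other strand, and of Serpinb9b, which overlaps Gm36099, may include reads of those genes.

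RefSeq promoter windows on GRCm38.p6, from 250 bases before to 50 after the RefSeq start, were at hand for 11 of the 12 tested members, with 12 windows in all. The windows of Serpinb9 and Serpinb9b are shown because these are neighbours on the same strand, with 9458 bases between them, and because their transcripts differed in how far they moved. Capitals mark the longest run the windows share, 13 bases, which begins at position −60 of Serpinb9 and −64 of Serpinb9b relative to the start. The windows lie at chr13:33004291-33004590 and chr13:33027164-33027463 on the + strand.
Serpinb9: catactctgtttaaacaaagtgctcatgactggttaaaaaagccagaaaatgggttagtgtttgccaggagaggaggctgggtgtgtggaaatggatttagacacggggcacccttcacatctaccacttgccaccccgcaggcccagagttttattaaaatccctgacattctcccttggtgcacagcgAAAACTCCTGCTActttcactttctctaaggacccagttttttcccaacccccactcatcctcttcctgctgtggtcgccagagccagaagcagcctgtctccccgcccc
Serpinb9b: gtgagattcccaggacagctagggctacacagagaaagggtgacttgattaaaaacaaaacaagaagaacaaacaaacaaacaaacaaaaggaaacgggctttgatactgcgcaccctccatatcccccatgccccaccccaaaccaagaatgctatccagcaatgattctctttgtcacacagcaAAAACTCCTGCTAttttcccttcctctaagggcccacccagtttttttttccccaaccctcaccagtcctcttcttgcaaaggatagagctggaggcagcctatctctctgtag
The windows of Serpinb8 and Serpina3g, at chr1:107589756-107590055 and chr12:104235897-104236196 on the + strand, are shown because these members had the largest negative log2 fold changes with TCM. Capitals mark matches to the AP-1 motif TGANTCA in Serpinb8 and to the STAT motif TTCNNNGAA in Serpina3g.
Serpinb8: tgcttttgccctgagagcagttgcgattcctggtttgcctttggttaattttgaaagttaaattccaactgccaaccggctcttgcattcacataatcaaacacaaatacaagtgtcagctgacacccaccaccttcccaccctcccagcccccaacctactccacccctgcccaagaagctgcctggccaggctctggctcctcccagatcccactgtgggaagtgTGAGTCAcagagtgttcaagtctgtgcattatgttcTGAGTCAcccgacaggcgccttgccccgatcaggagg
Serpina3g: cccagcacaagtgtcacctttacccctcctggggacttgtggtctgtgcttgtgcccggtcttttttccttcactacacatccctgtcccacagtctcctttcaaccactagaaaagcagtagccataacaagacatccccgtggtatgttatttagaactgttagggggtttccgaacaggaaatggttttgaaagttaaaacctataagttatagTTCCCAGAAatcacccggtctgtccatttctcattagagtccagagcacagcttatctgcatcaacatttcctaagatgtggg
Serpinb8 held 2 AP-1 matches, the first at position −23, and Serpina3g held 1 STAT match at position −33. Among all 32851 mouse promoter windows of this length, 7.81% held TGANTCA and 8.3% held TTCNNNGAA on either strand. Of the other tested members, Serpinb6a held 2 STAT matches in 1 of its windows, and Serpinh1 and Serpinf1 each held 1 match to ACGTG, the hypoxia response core, which 19.6% of all windows held. The TATA box TATAAA, held by 13.6% of all windows, occurred in none of the 12 (0 matches). All motifs were sought on both strands and the printed matches do not overlap. A match in a window is a description of the letters only.

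Library totals ranged from 8232889 to 14107964 counts, and a floor of 3 counts corresponds to 0.211 to 0.354 CPM. The 63 serpins held 0.464% to 0.550% of all counts. Of 12 FRC markers, 8 were tested, and Pdpn, Vcam1, Pdgfrb and Col1a1 were well expressed, while Ccl21a was at 0 in all libraries, Ccl19 had 1 count in all, and Thy1 had 1 to 16 counts. Of 8 melanoma markers, the summed level was 2.40 to 2.63 CPM with TCM and 1.81 to 3.66 CPM in the other conditions. Most of it came from Pmel and Mitf, which had counts in every library. Tyr was at 0 throughout. Tyrp1 had 6 and 3 counts with TCM and Dct 1 and 1, and both were at 0 elsewhere. Sox10 and Slc45a2 had 1 count each, in TCM replicate 2, and Mlana had 1 in LA replicate 2 and 1 in TCM replicate 1. The 8 leukocyte markers summed to 9.69 to 22.8 CPM, mostly from Lyz2, with Ptprc, Cd3e, Itgam and Adgre1 at 0. The 6 epithelial markers summed to 0.631 to 0.981 CPM with TCM and to 1.77 to 4.62 CPM elsewhere, almost all from Cdh1, with Epcam and Krt14 at 0, the 7 endothelial markers to 39.0 to 68.1 CPM, mostly from Emcn, and the 6 hepatocyte markers to 1.47 to 1.53 CPM with TCM and 0 to 0.335 CPM elsewhere, all from Apob (14 and 14 counts with TCM), with Alb, Apoa1 and Ttr at 0. TCM raised Pdpn (log2 FC 0.44) and lowered Pdgfrb (−0.47), the endothelial Tek (−1.84) and Cdh1 (−1.80). The part of these markers in the results was not tested. In RNA from whole cultures, fewer cells that express a gene and less RNA per cell cannot be told apart.

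Per exon length, Serpinh1 was by far the most abundant of the tested serpins described here, with a mean of 1178 RPKM over the 8 libraries. Serpinb6b followed at 273 RPKM, then Serpinf1 at 155, Serpinb1a at 130, Serpinb9 at 73.9 and Serpinb6a at 73.6 RPKM. The ranges over libraries overlapped between neighbours in this order from Serpinf1 to Serpinb6a, whereas Serpinh1, Serpinb6b and Serpinb6a each stood apart from the next member. Lower levels were held by Serpinb9b at 17.0 RPKM and Serpine2 at 12.6, whose ranges overlapped. The length counts every annotated exon, 8287 bases for Serpine2 and 3351 for Serpinb9b, so the order by CPM can differ. In CPM, Serpine2 ranged from 47.6 to 151 and Serpinb9b from 30.9 to 87.9. Serpinb8 had 1.86 RPKM, Serpini1 0.895, Serpina3g 0.830 and Serpinb1b 0.514 RPKM, and these 4 ranges overlapped in turn.

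**Figure D1:**
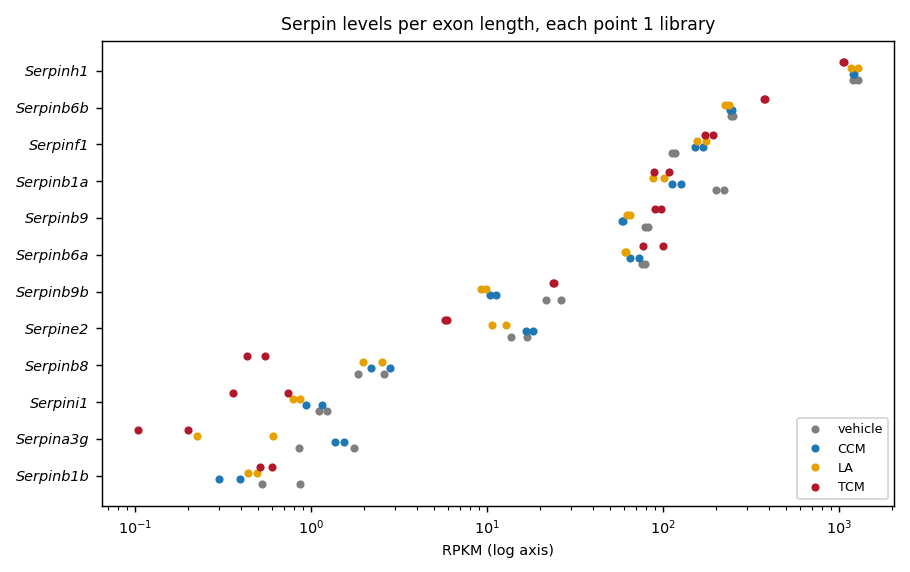
Level of each tested serpin in RPKM (log axis), ordered by the mean over 8 libraries, with 1 point per library and colours for the 4 conditions. Serpinh1 lies between 1050 and 1281 RPKM, and Serpinb8, the highest of the 4 lowest members, reaches 2.81 RPKM.

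With TCM, 7 of the 12 tested serpins changed against CCM, 3 upward and 4 downward, at an adjusted P under 0.05 with a log2 fold change (FC) beyond 0.39 (edgeR quasi-likelihood test), where 19.1% of all tested genes were called (8.83% higher and 10.2% lower). Serpine2, Serpini1, Serpinb8 and Serpina3g were lower, and 3 intracellular members of the chromosome 13 cluster, Serpinb6b, Serpinb9 and Serpinb9b, were higher. Serpina3g met the filter on counts only through conditions other than TCM, so its call is a description only. With LA, 3 of 12 changed against vehicle, where 2.55% of all tested genes were called (1.31% higher and 1.24% lower). Serpinf1 was higher, and Serpinb1a and Serpinb9b were lower. Over the 12 members the median log2 FC was 0.0049 with TCM and −0.36 with LA, and over all tested genes it was 0.00032 and −0.00035. The libraries of TCM and CCM did not overlap for 12 of 12 members (58.3% of all tested genes), and those of LA and vehicle for 10 (48%). When the 4 conditions were tested together, 9 of 12 members differed, all but Serpini1, Serpinh1 and Serpinb1b, where 21% of all tested genes did. Without vehicle replicate 1 the call of Serpinf1 in this test was lost. The call of Serpinb6a (adjusted P = 0.0469) was lost without any one of the vehicle, CCM or LA libraries, without TMM factors and with at least 10 counts asked of every library (adjusted P 0.0512 to 0.150). Serpini1 (adjusted P = 0.0562) was called by DESeq2 (0.0482), without TMM factors (0.0306), without a filter on low counts (0.00040), with the replicate block (0.0370) and without TCM replicate 1 (0.00402).

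**Figure D2:**
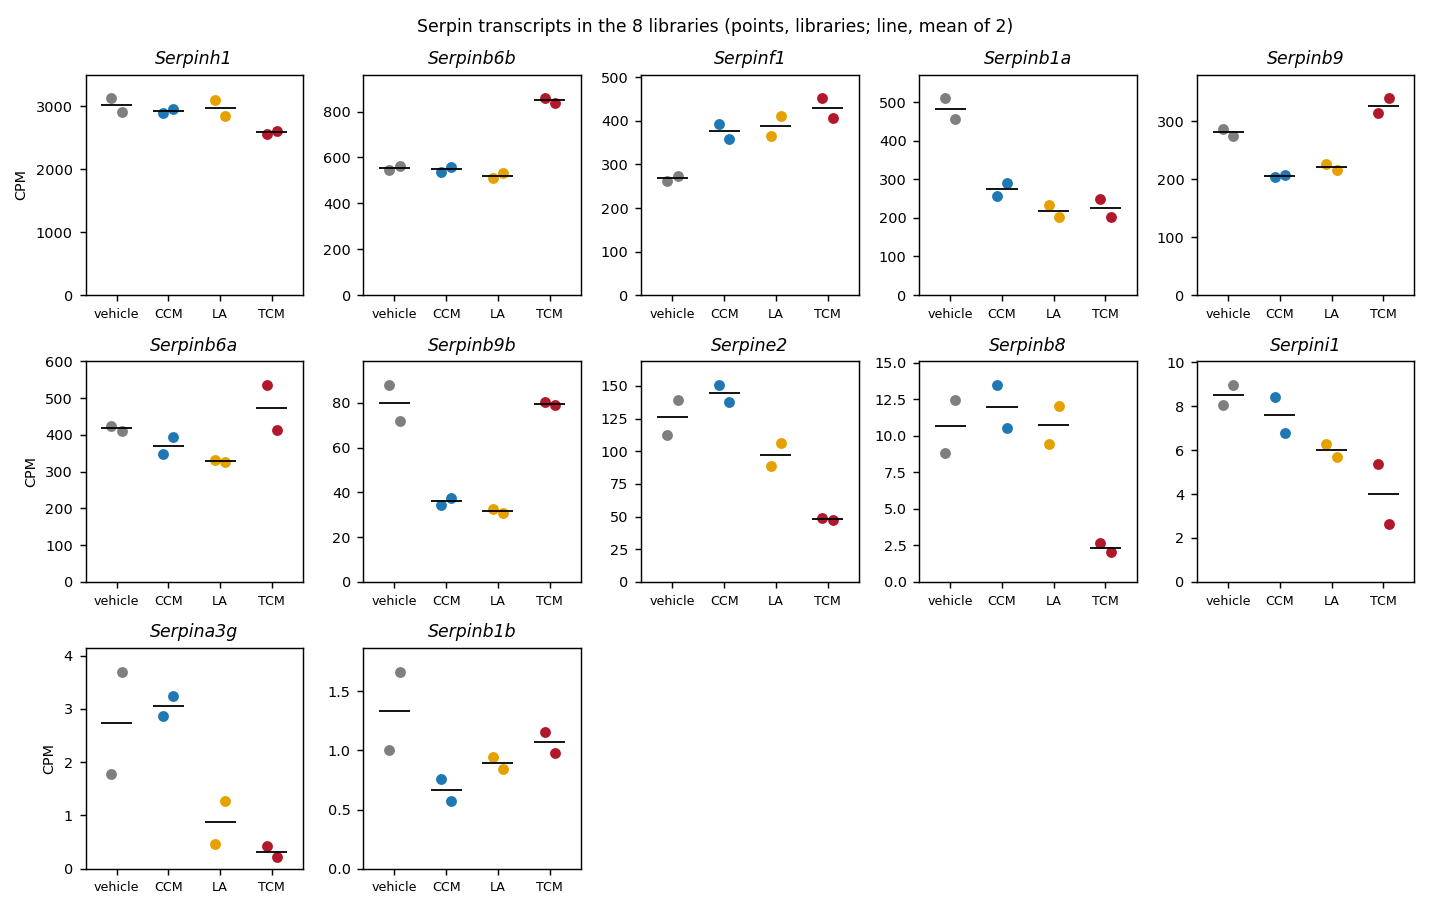
CPM of the 12 tested serpins (vertical axes start at 0) in vehicle, CCM, LA and TCM, with 1 point per library and a line at the mean of 2. Serpine2 and Serpinb8 are lowest with TCM, Serpinb6b is highest with TCM, and Serpinb1a is highest with vehicle.

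Serpine2 encodes protease nexin 1, a cell-surface inhibitor of thrombin, plasmin and the plasminogen activators. It had 112 and 140 CPM (vehicle), 151 and 138 (CCM), 88.5 and 106 (LA) and 48.9 and 47.6 (TCM). The TCM libraries were the lowest by a wide gap, and both LA libraries lay below both vehicle libraries. TCM lowered its level 2.99-fold (log2 FC −1.58, SE 0.130, adjusted P = 2.61e-05, edgeR), and this call was made whichever library was left out. With LA the log2 FC of −0.37 was not called (SE 0.125, adjusted P = 0.183).

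Serpini1 encodes neuroserpin, an inhibitor of tissue-type plasminogen activator known best from neurons. It had 8.03 and 8.96 CPM (vehicle), 8.42 and 6.78 (CCM), 6.26 and 5.71 (LA) and 5.37 and 2.62 (TCM). The TCM libraries lay below all others but stood apart from each other. Against CCM, TCM gave −0.93 on the log2 scale (SE 0.279, adjusted P = 0.0365, edgeR), and the call was lost without either vehicle library, either CCM library or TCM replicate 2, with adjusted P up to 0.224 and a log2 FC of −0.51 without the last, and with only the libraries compared (adjusted P = 0.105). Without TCM replicate 1 the log2 FC was −1.54 (adjusted P = 0.00207). With LA the log2 FC was −0.52 (adjusted P = 0.394).

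Serpinh1 encodes HSP47, the chaperone of the endoplasmic reticulum that binds the triple helix of newly made collagen and inhibits no protease. It had 3130 and 2905 CPM (vehicle), 2900 and 2965 (CCM), 3101 and 2853 (LA) and 2565 and 2606 (TCM). The TCM libraries were the lowest 2 of the 8, while vehicle, CCM and LA overlapped. No comparison made here called it. The log2 FC was −0.18 with TCM (95% interval −0.41 to 0.05, adjusted P = 0.251) and −0.02 with LA (−0.25 to 0.21, adjusted P = 0.968, edgeR). It accounted for 50.1% to 52.7% of the counts of the 63 serpins with TCM and 56.7% to 63.2% elsewhere.

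Serpinf1 encodes pigment epithelium-derived factor, a secreted collagen-binding protein known for restraining blood vessel growth, which also inhibits no protease. It had 263 and 275 CPM (vehicle), 394 and 359 (CCM), 364 and 411 (LA) and 452 and 406 (TCM). Both vehicle libraries were the lowest, and CCM, LA and TCM overlapped in turn. The log2 FC with LA against vehicle was 0.53 (SE 0.106, adjusted P = 0.0278, edgeR). This call was lost without any one of the vehicle, CCM or LA libraries and kept without either TCM library. The log2 FC stayed between 0.44 and 0.61. DESeq2 and a fit of only the libraries compared also called it. The CCM and TCM libraries are not part of this comparison and enter through the spread estimated over all 4 conditions. With TCM against CCM the log2 FC was 0.19 (adjusted P = 0.228).

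Serpinb1a encodes a mouse counterpart of the leukocyte elastase inhibitor, which blocks neutrophil serine proteases. It had 511 and 456 CPM (vehicle), 258 and 292 (CCM), 232 and 202 (LA) and 249 and 203 (TCM). Every treated or conditioned library was far below both vehicle libraries, and LA and TCM overlapped. LA lowered its level 2.23-fold against vehicle (log2 FC −1.16, SE 0.127, adjusted P = 0.00112, edgeR). Against CCM, TCM gave a log2 FC of −0.28 (95% interval −0.56 to −0.0031, adjusted P = 0.141), which was called only without TMM factors (−0.42, adjusted P = 0.0348) or without TCM replicate 1 (−0.43, adjusted P = 0.0161).

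Serpinb9 encodes the mouse inhibitor of granzyme B, the cell-killing protease of cytotoxic lymphocytes. It had 287 and 274 CPM (vehicle), 203 and 207 (CCM), 225 and 216 (LA) and 314 and 340 (TCM). The 4 conditions did not overlap, in the order CCM, LA, vehicle and TCM. Its log2 FC was 0.68 with TCM against CCM (SE 0.0908, adjusted P = 0.000415, edgeR) and −0.35 with LA against vehicle (SE 0.0907, adjusted P = 0.0770), under the fold threshold.

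Serpinb9b, its neighbour, encodes a related inhibitor known to act on granzyme M. It had 87.9 and 72.1 CPM (vehicle), 34.5 and 37.5 (CCM), 32.7 and 30.9 (LA) and 80.2 and 78.9 (TCM). Levels fell into a high pair, vehicle and TCM, and a low pair, CCM and LA. TCM was 2.21-fold above CCM (log2 FC 1.14, SE 0.118, adjusted P = 8.10e-05), and LA was 2.52-fold below vehicle (log2 FC −1.33, SE 0.119, adjusted P = 0.000317, edgeR). When the counts of Serpinb9 and its 9-series paralogs were summed, the log2 FC was 0.76 with TCM (adjusted P = 0.000247) and −0.52 with LA (adjusted P = 0.0184).

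Serpinb6b encodes an intracellular inhibitor known to block granzyme A. It had 546 and 562 CPM (vehicle), 538 and 558 (CCM), 509 and 531 (LA) and 859 and 838 (TCM). Both TCM libraries lay far above the rest, and both LA libraries lay just below those of vehicle and CCM. The log2 FC was 0.63 with TCM (SE 0.0938, adjusted P = 0.000794) and −0.09 with LA (95% interval −0.30 to 0.12, adjusted P = 0.760, edgeR). Its paralog Serpinb6a, counterpart of a human inhibitor of cathepsin G, had 425 and 410 CPM (vehicle), 348 and 395 (CCM), 333 and 327 (LA) and 536 and 412 (TCM). The TCM libraries of Serpinb6a lay wide apart, and neither TCM (log2 FC 0.35, adjusted P = 0.0718) nor LA (−0.34, adjusted P = 0.232) gave a call. Without TCM replicate 2 its log2 FC with TCM was 0.53 (adjusted P = 0.000899).

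Serpinb8, the tested clade B member outside the cluster, lies on chromosome 1 from 107590006 to 107610484 (+ strand) and encodes an intracellular inhibitor known to block furin. It had 8.81 and 12.5 CPM (vehicle), 13.5 and 10.5 (CCM), 9.45 and 12.05 (LA) and 2.63 and 2.07 (TCM). The first 3 conditions overlapped, and TCM lay far below them. TCM lowered its level 5.09-fold (log2 FC −2.35, SE 0.272, adjusted P = 0.00017), whereas with LA the log2 FC was 0.02 (95% interval −0.45 to 0.49, adjusted P = 0.983, edgeR).

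Serpina3g encodes an inhibitor of cathepsins known from activated lymphocytes and was the one tested member of clade A. It had 16 and 40 counts (vehicle), 34 and 34 (CCM), 4 and 18 (LA) and 4 and 2 (TCM), or 1.78 and 3.70, 2.86 and 3.25, 0.473 and 1.27, and 0.421 and 0.218 CPM. Both TCM libraries were the lowest, 1 of them under the floor. The ratio of summed counts per library size for TCM to CCM was 0.106, with a 95% counting interval of 0.0374 to 0.242, and the fitted log2 FC was −3.20 (SE 0.590, adjusted P = 0.00312, edgeR). With LA the log2 FC of −1.54 was not called (adjusted P = 0.122), but it was without a filter on low counts (adjusted P = 0.00852), and it was −2.54 without LA replicate 2 and −0.89 without vehicle replicate 2. The pseudogene Serpina3h, with which it shares sequence, was low and had 7 and 14 counts (vehicle), 22 and 7 (CCM), 2 and 8 (LA) and 0 and 0 (TCM), so the counts of the 2 genes cannot be fully separated. With the Serpina3 genes summed, the log2 FC was −3.62 with TCM (adjusted P = 0.000691) and −1.47 with LA (adjusted P = 0.0856).

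Serpinb1b, the tested member of lowest level and a paralog of Serpinb1a, ranged from 6 to 18 counts per library and from 0.573 to 1.66 CPM. No test called it, and its 95% interval with TCM, −0.34 to 1.67 on the log2 scale, includes values of either sign at this depth.

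**Figure D3:**
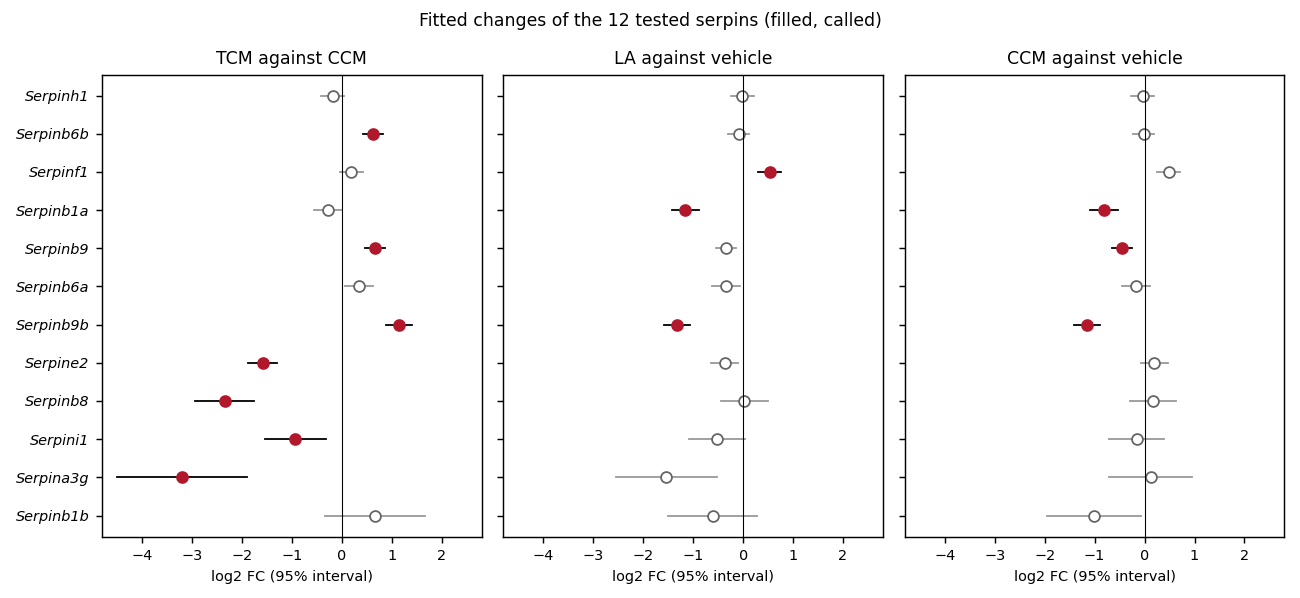
Fitted log2 FC (horizontal axis) with 95% intervals for the 12 tested serpins in TCM against CCM, LA against vehicle and CCM against vehicle, with filled points for calls. TCM shows calls on both sides of 0, LA shows 1 above and 2 below, and CCM against vehicle shows 3, all below.

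The controls themselves differed for part of the family. CCM against vehicle called 3 of 12 members, all lower, where 1.3% of all tested genes were called (0.898% higher and 0.404% lower). The libraries of CCM and vehicle did not overlap for 6 members (49.8% of all tested genes). The log2 FC was −0.81 for Serpinb1a (SE 0.126, adjusted P = 0.0235), −0.45 for Serpinb9 (SE 0.0907, adjusted P = 0.0407) and −1.15 for Serpinb9b (SE 0.117, adjusted P = 0.00554, edgeR). Serpinf1 came next with a log2 FC of 0.48 (adjusted P = 0.0525), and it was called higher by DESeq2 (adjusted P = 0.0104), without TMM factors (0.0358), without a filter on low counts (0.00298), with only the libraries compared (0.000271) and without TCM replicate 1 (0.00437) or TCM replicate 2 (0.00417). Leaving out vehicle replicate 1 or CCM replicate 1 ended all 3 calls, with 0 genes of the whole table then called, and leaving out vehicle replicate 2 or CCM replicate 2 left 1, Serpinb9b. Without either LA library the call of Serpinb9 was also lost (adjusted P up to 0.0596). This comparison shares the CCM libraries with the TCM comparison and the vehicle libraries with the LA comparison.

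Setting each medium against the other control gave other calls for part of the family. TCM against vehicle called 7 of 12, where 17.5% of all tested genes were called, with Serpinf1 (0.68) and Serpinb6b (0.61) higher on the log2 scale and Serpine2 (−1.39), Serpinb8 (−2.18), Serpini1 (−1.09), Serpinb1a (−1.09) and Serpina3g (−3.08) lower. Serpinb9b had a log2 FC of −0.0057 against vehicle (95% interval −0.25 to 0.24), and Serpinb9 one of 0.22 (adjusted P = 0.115). LA against CCM called 0 of 12 (edgeR), where 0.626% of all tested genes were called. At an unadjusted P under 0.05 there were 3 members, Serpine2, Serpinb1a and Serpina3g, and DESeq2 called 1, Serpine2. For Serpinb9b the log2 FC of LA against CCM was −0.18 (95% interval −0.45 to 0.09), and for Serpinb1a it was −0.34 (−0.62 to −0.06, adjusted P = 0.348).

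Whether TCM and LA acted differently was tested as the difference between TCM against CCM and LA against vehicle. Of 12 members, 7 differed, 5 with the TCM effect the higher and 2 with it the lower, where 10.4% of all tested genes were called (4.45% with a higher and 6% with a lower TCM effect). Serpinb9b had the largest positive difference, 2.48 on the log2 scale (SE 0.167, adjusted P = 3.91e-05), and Serpinb8 the largest negative one, −2.37 (SE 0.351, adjusted P = 0.00141, edgeR). Because CCM lay below vehicle for Serpinb1a, Serpinb9 and Serpinb9b, their differences depend on which control each effect was set against.

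Along the chromosome 13 cluster, Serpinb6b, Serpinb9 and Serpinb9b follow each other on the + strand, with 24182 and 9458 bases between them, and all 3 were higher with TCM than with CCM. The next member on the + strand, Serpinb1b, was also above 0 with TCM (0.67, 95% interval −0.34 to 1.67) but was not called. Serpinb1a at one end of the cluster and Serpinb6a at its other end, both on the − strand, were not called with TCM. Serpinb6a too was above 0 (0.35, 95% interval 0.07 to 0.63), and Serpinb1a was below (−0.28). With LA, Serpinb1a and Serpinb9b were called and the tested members between them were not. The other 9 members of the cluster, Serpinb9c, Serpinb9d, Serpinb9e, Serpinb9f, Serpinb9g, Serpinb1c, Serpinb6c, Serpinb6d and Serpinb6e, were low, with at most 9 counts in a library. Serpinb9h had no GENCODE position.

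**Figure D4:**
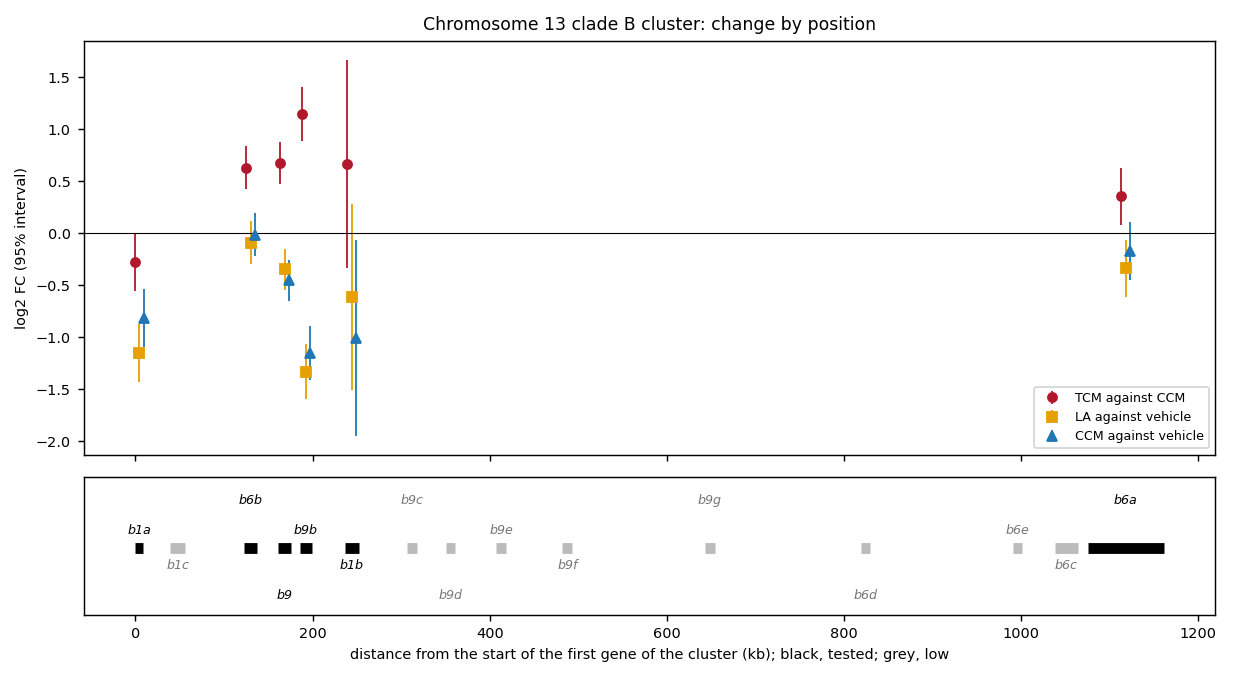
Upper panel, fitted log2 FC with 95% intervals of the 6 tested members of the chromosome 13 cluster in 3 comparisons, by distance from the first gene of the cluster (kb). Lower panel, gene bodies of the 15 members, black for tested and grey for low. Serpinb6b, Serpinb9 and Serpinb9b lie together and are above 0 with TCM against CCM, as are the uncalled Serpinb1b and Serpinb6a. LA against vehicle and CCM against vehicle lie at or below 0.

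Low members were mostly silent. Of 51, 26 had 0 counts in all 8 libraries, which allows at most the floor of 3 counts per library, 19 had 1 to 10 counts in all, and 6 had more. Only Serpina3h and Serping1 reached 10 counts in any library. Serping1, which encodes the C1 inhibitor of complement, had 0 and 2 counts (vehicle), 48 and 2 (CCM), 6 and 5 (LA) and 5 and 4 (TCM), so its CCM level rests on CCM replicate 1. The other 4 with more than 10 counts in all were Serpinb1c (44), Serpinb6c (36), Serpina9 (29) and Serpina1e (24). In clade A the liver genes Serpina1a, Serpina1c and Serpina1d, which encode alpha-1 antitrypsin, and Serpina3k and Serpina3m had 0 counts, as did Serpina11, Serpina1f, Serpina3a, Serpina3b, Serpina3j and Serpina7. Serpina3n had 7 counts in all, Serpina10 and Serpina16 had 5 each, Serpina12 and Serpina3c 4 each, Serpina1b and Serpina3i 2 each, and Serpina3f, Serpina5 and Serpina6 1 each.

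In clade B, the epithelial members Serpinb3a, Serpinb3b, Serpinb3c, Serpinb3d, Serpinb5, Serpinb7, Serpinb11, Serpinb12 and Serpinb13 had 0 counts, and so did Serpinb10, Serpinb9f, Serpinb9g and Serpinb9h. Serpinb9e had 4 counts in all, Serpinb2, which encodes plasminogen activator inhibitor 2, had 3, Serpinb9d and Serpinb6e had 2 each, and Serpinb6d and Serpinb9c had 1 each. Of the plasma inhibitors, Serpinc1 (antithrombin) had 7 counts in all, Serpind1 (heparin cofactor II) 5 and Serpinf2 (antiplasmin) 3. Serpine3 and Serpini2 had 0.

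Proteases that serpins meet were also listed. Of 34 serine proteases of clotting, fibrinolysis, complement and granules, 9 were tested, and TCM raised 4, lowered 2 and left 3 uncalled, where 8.83% of all tested genes were called higher and 10.2% lower. The matrix proteases Prss23 (log2 FC 1.37, adjusted P = 2.08e-05) and Htra1 (1.30, adjusted P = 1.74e-05) and the complement proteases C1ra (0.96, adjusted P = 0.00021) and C1s1 (0.84, adjusted P = 0.000216, edgeR) were higher. Plat, tissue-type plasminogen activator and a target of Serpine2 and Serpini1, had 127 and 153 CPM (vehicle), 142 and 136 (CCM), 118 and 135 (LA) and 88.9 and 84.4 (TCM). TCM lowered it (−0.68 on the log2 scale, SE 0.114, adjusted P = 0.00173), and LA left it uncalled (−0.15, adjusted P = 0.637). Plau, the urokinase-type activator, was not called with TCM (0.16, adjusted P = 0.472) or LA (−0.49, adjusted P = 0.121). With LA, 1 of the 9 tested proteases was called, lower, where 1.24% of all tested genes were called lower. It was the mast cell chymase Mcpt4, which had 11 and 19 counts with vehicle and 0 and 4 with LA. The ratio was 0.116 with a 95% counting interval of 0.0298 to 0.330. Mcpt4 met the filter on counts only through its vehicle and CCM libraries. It could thus enter the tests only as a gene lower with LA and TCM, and its calls are descriptions only. DESeq2 called 0 listed proteases with LA. Mcpt4 was also the other protease lowered by TCM, with 21 and 21 counts with CCM and 1 and 1 with TCM, a ratio of 0.0570 with a counting interval of 0.00668 to 0.219. The granzymes Gzma and Gzmb were at 0 in all libraries, and Gzmm had 2 to 10 counts.

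Among 16 lysosomal and cytoplasmic proteases, 11 were tested, and 5 were called with TCM (19.1% of all tested genes) and 1 with LA (2.55%). TCM raised Ctsl (log2 FC 0.76, adjusted P = 0.000639), Lgmn (0.74, adjusted P = 0.000498) and Ctsd (0.64, adjusted P = 0.00449) and lowered Ctsc (−0.65, adjusted P = 0.00236) and Ctsh (−0.53, adjusted P = 0.0106, edgeR). Ctsb, the abundant lysosomal cysteine protease, had a log2 FC of 0.32 with TCM, under the fold threshold (adjusted P = 0.0376), and −0.22 with LA (adjusted P = 0.330). The gene called with LA was Ctsa (−0.41, adjusted P = 0.0311).

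Of 24 listed receptors and cofactors, 19 were tested, and TCM raised 10 and lowered 2, where 8.83% of all tested genes were called higher and 10.2% lower. F3, tissue factor and the starter of clotting, was raised most clearly, from 44.2 and 45.0 CPM with CCM to 178 and 169 with TCM (1.96 on the log2 scale, SE 0.109, adjusted P = 6.63e-06), and was also higher with LA (0.76, SE 0.108, adjusted P = 0.00549). The clotting receptor Thbd was higher with TCM (0.73, adjusted P = 0.00282), and so was the urokinase receptor Plaur (0.63, adjusted P = 0.0310) and the heparan sulfate carrier Sdc2 (0.50, adjusted P = 0.00358). Plxdc2, a reported receptor of the Serpinf1 product, was lower with TCM (−1.58, adjusted P = 6.94e-05) and with LA (−0.69, adjusted P = 0.0332, edgeR). Lrp1, the endocytic receptor that clears serpin and protease complexes, was not called with TCM (0.50, adjusted P = 0.108) or LA (−0.13, adjusted P = 0.861).

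Of 21 listed partners of Serpinh1 in collagen folding and modification, 20 were tested, and TCM raised 4, the prolyl hydroxylase subunits P4ha1 (log2 FC 0.73, adjusted P = 0.000334), P4ha2 (0.76, adjusted P = 0.000159) and P4ha3 (0.45, adjusted P = 0.0414) and the lysyl hydroxylase Plod3 (0.58, adjusted P = 0.000724). It lowered Pcolce2, an enhancer of procollagen cleavage (−1.45, adjusted P = 0.000324). The 5 called of 20 (25%) are near the 19.1% of all tested genes called with TCM. LA changed 0 of 20 (edgeR), with 4 at an unadjusted P under 0.05 and 0 called by DESeq2. The median log2 FC with TCM was 0.38 over the tested serine proteases, 0.31 over the lysosomal list, 0.46 over the receptors and 0.09 over the collagen list, against 0.00032 over all tested genes.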

How the data were processed

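Poly(A) RNA of FRCs was measured in 8 libraries. The authors prepared directional libraries, aligned reads to GRCm38 with STAR 2.7.0a, counted them with featureCounts (Subread 2.0.1) and deposited the raw counts. Another deposited table repeats those counts for 12137 genes (100% of its values equal), and 0 columns were unused. Conditions came from the library labels. The 2 libraries of a condition are replicates of 1 line, so P values measure the spread between these cultures only. That spread was estimated for each gene over all 4 conditions together. The 2 libraries differed most with TCM, with a chi-square per degree of freedom of 19.8. The value was 4.82 for vehicle, 3.28 for CCM and 7.32 for LA. P values of comparisons without TCM therefore also carry the TCM spread. Library totals were 8232889 to 14107964 counts, and floors and counting intervals cover counting error only.

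The 12137 genes reaching 10 counts in 3 or more libraries were scaled in R 4.3.3 with TMM factors (0.938 to 1.04) and fitted with edgeR 4.0.16 (quasi-likelihood test, robust, 4 condition means, all 8 libraries), tested on simulated data first. P values were adjusted by Benjamini-Hochberg over all tested genes, and genes were called at an adjusted P under 0.05 and a log2 FC beyond 0.39. CPM use TMM-scaled library sizes, and RPKM divide them by the GENCODE M21 exon union, found for 62 of 63 members. Alternatives were DESeq2 1.42.0 and its size factors, other filters and fold thresholds, a replicate block, summed paralogs, the other control and leaving out each library. Every member is accounted for except 1 that is not reported here. Members called in any test and the 5 most abundant are given per library, and of the protease, cathepsin, receptor and collagen lists up to 4 called genes with the smallest adjusted P plus Plat, Plau, Plaur, Lrp1 and Ctsb. Some further called or zero genes were named after their values were seen. Members and lists were chosen with earlier results of these data known.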

Additional observations from a re-analysis of the deposited data

Results flagged for a closer look

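For 7 serpins the TCM effect (against CCM) and the LA effect (against vehicle) differed by the test of the difference itself (edgeR, 2 libraries per condition). For Serpine2 the difference was −1.21 on the log2 scale (SE 0.180, adjusted P = 0.00143), with −1.58 for TCM and −0.37 for LA. For Serpinb8 it was −2.37 (adjusted P = 0.00141), with −2.35 for TCM and 0.02 for LA. Serpinb1a had a difference of 0.88 (SE 0.178, adjusted P = 0.00956), lost without vehicle replicate 1, CCM replicate 1 or LA replicate 2 (adjusted P 0.0527 to 0.0637), and it was lower with LA while its TCM effect was not called. Serpinb6b had a difference of 0.72 (SE 0.132, adjusted P = 0.00526), lost without CCM replicate 1 (adjusted P = 0.0531). Serpinb9 had a difference of 1.02 (SE 0.128, adjusted P = 0.00048), with 0.68 for TCM and −0.35 for LA. Serpinb9b had a difference of 2.48 (adjusted P = 3.91e-05), with effects of opposite sign, 1.14 for TCM and −1.33 for LA. Serpinb6a had a difference of 0.69 (SE 0.179, adjusted P = 0.0312), with neither effect called alone, and it was lost without any one of the vehicle, CCM or LA libraries (adjusted P 0.0617 to 0.160) and without TMM factors (adjusted P = 0.0730). CCM lay below vehicle for Serpinb1a (−0.81 on the log2 scale), Serpinb9 (−0.45) and Serpinb9b (−1.15), and these offsets enter their differences directly. Against vehicle, TCM and LA gave −1.09 and −1.16 for Serpinb1a, 0.22 and −0.35 for Serpinb9, and −0.0057 and −1.33 for Serpinb9b. For Serpinb1a, TCM and LA thus lay close together when both were set against vehicle. TCM directly against LA was not tested.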

How the results depend on the processing

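At a fold threshold of 1 on the log2 scale, called serpins numbered 4 with TCM, 4 for the difference and 1 for CCM against vehicle, where the main counts were 7, 7 and 3. With TCM and for the difference, fewer of all tested genes were called at this threshold than the main 19.1% and 10.4%. The counts of 4 and 4 can therefore not be set against those main shares. Whether serpins were called more often than other genes at this threshold was not tested. Without a filter on low counts CCM against vehicle called 5. These included Serping1 (log2 FC 4.27), which had 48 counts in CCM replicate 1 and 2 in CCM replicate 2. LA set against CCM called 0. Leaving out each library gave 6 to 8 calls with TCM, 2 to 3 with LA, 4 to 8 for the difference, 0 to 4 for CCM against vehicle and 7 to 10 for any difference among conditions. The number of all tested genes called also moved with the library left out, so these ranges do not measure the stability of the serpins alone. The replicate numbers were not taken as pairs because the paper describes no pairing. Over all tested genes, deviations of same-numbered libraries correlated most for vehicle with LA (r 0.353) and least for CCM with TCM (r −0.242). With the replicate block the counts were 7 with TCM, 3 with LA, 7 for the difference, 3 for CCM against vehicle and 10 for any difference, and crossing the CCM numbers, which was added after seeing the data, moved only CCM against vehicle, to 4. With the replicate block, more of all tested genes were called than in the main fit with TCM, with LA and for the difference. The unchanged serpin counts are to be read beside that rise. Without TMM factors the median log2 FC of all genes with TCM moved from 0.00 to −0.14. Against the other control, Serpinb9b with TCM went from 1.14, a call, to −0.0057, and the uncalled Serpinb1b from 0.67 to −0.34. With LA, uncalled values went from 0.02 to −0.14 for Serpinb8, from −0.02 to 0.022 for Serpinh1, from −0.35 to 0.11 for Serpinb9 and from −0.61 to 0.39 for Serpinb1b. Without TMM factors Serpinb6b went to 0.014 for CCM against vehicle. Leaving out 1 library gave, with LA, −0.20 to 0.30 for Serpinb8 and −0.081 to 0.039 for Serpinh1. It gave −1.02 to 0.014 for the difference of Serpini1, and for CCM against vehicle −0.053 to 0.44 for Serpinb8, −0.10 to 0.014 for Serpinh1, −0.042 to 0.0096 for Serpinb6b and −0.28 to 0.76 for Serpina3g. The causes were not tested. Of the values of single serpins under the alternatives, 993 kept their direction and side of the threshold, 61 lost a call, 20 gained one and 17 changed sign. Depth limits Serpina3g, Serpinb1b and the low members.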
